A study of Homo sapiens with 10 samples.

Results

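The comparison described here sets human TREx293 cells that express the fusion protein MN1-BEND2 against the control cells of the same study. It takes the 2 libraries labelled MN1-BEND2 and the 2 labelled CTRL, 4 of the 10 libraries in the series, and all genes of the deposited count table. Of 58216 genes, 34428 had at least 1 count in these 4 libraries and 18127 passed the filter on low counts and were tested. TREx293 is a human embryonic kidney line with a tetracycline repressor and a recombination site for a construct. Per the labels' protocols, the cDNA carried a 3×HA tag in the vector pcDNA5/FRT/TO, was brought in together with the recombinase plasmid pOG44, was selected with blasticidin and hygromycin, and was switched on with doxycycline. The control libraries have the genotype WT and carry no construct in the labels. Whether control cells were given doxycycline or the selecting drugs is not stated, nor whether a line is 1 clone or a pool. Lines with unfused MN1 and unfused BEND2, 2 libraries each, serve below for direct tests of whether the fusion differed from its parts. Nothing in the labels makes libraries of the same group separate cultures. The p-values therefore reflect the spread among these particular samples, part or all of which may be technical.

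MN1 is a transcriptional coactivator with long disordered stretches that binds the acetyltransferase p300 and the BAF chromatin remodeller. BEND2 is an X-linked gene with BEN domains, which bind DNA or other proteins, and is normally active in testis. Rearrangements that join the MN1 gene to BEND2 define a class of astroblastoma, a glial brain tumour. A kidney-derived line is therefore a host for the protein and not a model of the tumour's cell of origin.

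Levels are given as counts per 1e6 counts (CPM), scaled with TMM factors. A gene is called, and is said to have risen or fallen, at an adjusted p under 0.05 in edgeR's quasi-likelihood test, adjusted by Benjamini-Hochberg over all 18127 tested genes. The value in brackets after a pair of levels is the log2 fold change with its standard error (SE), and in pairs of values replicate 1 comes first. Levels are not divided by gene length, so they are compared between groups and not between genes.

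The labels were checked first. MN1 (chromosome 22, 27748277 to 27801498, GRCh38) had 3.91 and 3.81 CPM in control cells and 291 and 291 CPM in MN1-BEND2 cells. BEND2 (chromosome X, 18162931 to 18220883) had 0 and 0.171 CPM in control cells and 394 and 407 CPM in MN1-BEND2 cells. Reads of the construct and of the endogenous gene are added together at both loci. Against the unfused lines, MN1 reads in fusion cells were lower than in MN1 cells by a small margin (log2 difference -0.17, adjusted p = 0.000475), and BEND2 reads did not differ from those in BEND2 cells (0.02, adjusted p = 0.807). Reads at each locus were thus about as many in fusion cells as in the line with that gene unfused. Such counts also depend on the length of MN1 or BEND2 sequence in each construct. They therefore do not compare the mRNA levels of the constructs.

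Depth was 19 and 23.4 M counts (M stands for 1e6) in the control libraries and 18.6 and 24.5 M in the fusion libraries. CTRL replicate 1 stands apart by transcripts of salivary gland and squamous epithelium. The 18 markers of the list for those tissues summed to 85.8 CPM in CTRL replicate 1, 0.855 CPM in CTRL replicate 2, and 3.07 and 0.853 CPM in the fusion libraries. The epithelial keratin gene KRT4 had 16.5 and 0 CPM in control against 0.0529 and 0 CPM in fusion cells, and KRT13 had 20.7 and 0.342 against 0.529 and 0.244 CPM. Both KRT4 and KRT13 are called lower (adjusted p = 0.0452 and 0.0238), and neither is called without that library. MN1 replicate 1 holds the same transcripts, with KRT4 at 17.6 and KRT13 at 19.1 CPM. Brain, leukocyte and muscle markers are given with the cell type lists near the end.

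Promoter letters of 3 genes that had under 1 CPM in control cells and rose to several CPM or more with the fusion are shown first. They set the annotated starts side by side. Which start the gained transcripts used was not tested. Each line holds the 250 bases before the annotated start in RefSeq (GRCh38.p14), read 5′ to 3′ along the gene's own strand, with CpG dinucleotides in capitals. ADRA2A lies on the plus strand at chr10:111076779-111077028, GABRA2 on the minus strand at chr4:46389036-46389285, and FLRT2 on the plus strand at chr14:85531142-85531391.
ADRA2A: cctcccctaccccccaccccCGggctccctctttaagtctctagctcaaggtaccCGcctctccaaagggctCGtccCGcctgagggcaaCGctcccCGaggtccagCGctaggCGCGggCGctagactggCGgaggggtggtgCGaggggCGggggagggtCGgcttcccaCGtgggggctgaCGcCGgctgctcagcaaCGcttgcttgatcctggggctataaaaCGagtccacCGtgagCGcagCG
GABRA2: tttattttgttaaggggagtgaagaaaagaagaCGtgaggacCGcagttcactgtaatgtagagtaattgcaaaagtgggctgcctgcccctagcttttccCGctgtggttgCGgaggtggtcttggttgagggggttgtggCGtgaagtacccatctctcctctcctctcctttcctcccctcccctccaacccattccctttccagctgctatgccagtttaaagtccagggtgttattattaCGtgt
FLRT2: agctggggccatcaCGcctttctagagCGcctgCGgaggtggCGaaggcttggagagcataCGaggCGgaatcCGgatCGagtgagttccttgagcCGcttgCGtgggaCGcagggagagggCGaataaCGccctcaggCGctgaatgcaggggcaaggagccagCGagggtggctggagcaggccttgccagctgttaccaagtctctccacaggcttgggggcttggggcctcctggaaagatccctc
These windows hold 22, 6 and 15 CpG dinucleotides at a GC content of 68.8%, 50.4% and 63.6%, beside a median of 20 CpG over the 10922 tested protein-coding genes with a promoter in the table. The ADRA2A window holds a TATA box (letters TATAAA, either strand), found in 6.28% of those promoters, and an E-box (CACGTG), found in 9.33%. Neither motif is in the windows of GABRA2 and FLRT2. All motif shares here and below were taken over 250 bases before to 50 bases after the start, a longer stretch than these windows. The 3 annotated starts thus differed in CpG content. The windows of GABRA2 and FLRT2 lie inside the spans of these genes in the GENCODE annotation, downstream of their outermost starts.

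The fusion was accompanied by changes in 51.9% of tested genes, 26.7% higher and 25.2% lower, with a median log2 fold change over all genes of 0.008. Of the 9416 called genes, 9409 had no overlap between the control and fusion libraries. With 2 libraries a group a called gene nearly always shows none, so this is not separate support. The share without overlap among all tested genes is not given here. Changes of at least 1 on the log2 scale were fewer, 863 genes or 4.76% higher and 421 genes or 2.32% lower, so large changes were mostly rises. Direct contrasts called 46.3% of genes against MN1 cells (23.2% higher, 23.2% lower) and 43.6% against BEND2 cells (21.7% higher, 21.9% lower).

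Large changes were more frequent among faint genes. Among the 2849 genes with a mean under 1 CPM over the 4 libraries, 8.28% rose by at least 1 and 4.77% fell by that much. Among the 2317 genes with a mean of at least 100 CPM, 1.68% rose and 0.475% fell by at least 1, although 33.6% rose and 43.4% fell by any amount. Fold changes also moved with the GC content of the gene. The median was -0.22 for the lowest GC class of 5 equal classes (12.7% rose, 46.7% fell) and 0.26 in the highest (43.3% rose, 5.96% fell). The part of GC content in single results was not separated further than by a fit with GC and length offsets, which called 23.2% of genes higher and 22.9% lower. Counts under these offsets are given below for some gene lists only. They also differed from the main ones in lists for which they are not given.

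**Figure D1:**
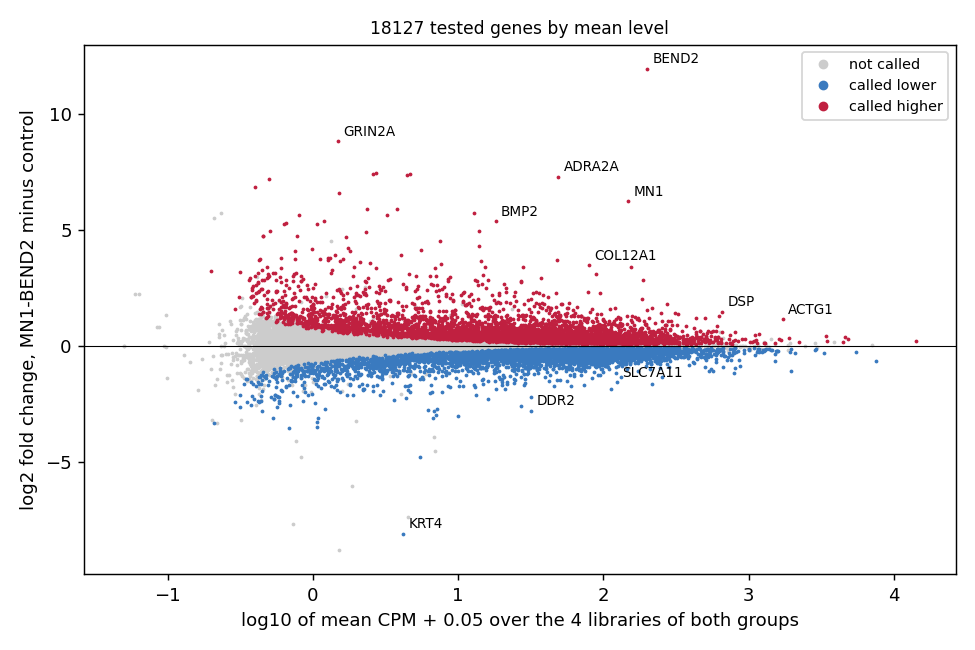
Each point is 1 of 18127 tested genes, with the log10 of its mean CPM + 0.05 over the 4 libraries of both groups on the x axis and its log2 fold change, MN1-BEND2 minus control, on the y axis. Red points were called higher, blue lower and grey not called; large changes thin out to the right, where 39 genes with a mean of at least 100 CPM rose and 11 fell by at least 1.

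Genes that were nearly silent in control cells formed the upper end of the response. With at most 3 counts over both control libraries, 30 genes were called higher, 20 of them protein-coding. Conversely, 4 genes with at most 3 counts over both fusion libraries were called lower, 3 of them protein-coding. GABRA2, a subunit of the GABA-A receptor, had 0.0521 and 0.0428 CPM in control and 9.09 and 9.30 CPM in fusion cells, a count ratio of 196 (exact 95% interval 53.9 to 1630, counting error only). FLRT2, a membrane protein that acts in cell adhesion and axon guidance, had 0.0521 and 0.0428 against 8.09 and 9.30 CPM (ratio 187, 51.4 to 1550). KCNQ3, a subunit of the neuronal M-type potassium channel, had 0.0521 and 0 against 5.44 and 5.16 CPM (ratio 225, 40 to 8920). All 3 were at or below 0.187 CPM in every MN1 and BEND2 library too, and all 3 were higher in fusion cells than in either (adjusted p at most 1.63e-07).

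The adaptor gene DOK6, which links receptor tyrosine kinases to neurite growth, had 0 and 0.0428 CPM in control and 4.44 and 5.65 CPM in fusion cells (ratio 218, 38.8 to 8650). NEUROG3, the basic helix-loop-helix factor that starts endocrine differentiation in the pancreas, had 0.104 and 0.0428 against 4.07 and 5 CPM (ratio 65.2, 22.0 to 319). GRIN2A, a subunit of the NMDA glutamate receptor, had no count in either control library and 2.96 and 2.76 CPM in fusion cells, at least 40.4-fold higher when the control group is set to 3 counts. Each of these genes went from background to a low level that was seen in both fusion libraries. Others of this kind were the somatostatin receptor SSTR1 (0.0521 and 0 against 3.12 and 2.64 CPM), the matrix protease ADAMTS5 (0.104 and 0 against 1.96 and 2.52 CPM), the histamine receptor HRH3 (0.0521 and 0.0428 against 1.64 and 2.36 CPM) and the netrin-family gene NTNG1 (0.0521 and 0 against 1.11 and 1.83 CPM). Their count ratios were 121, 48.4, 43.5 and 64.6, with lower bounds of 21.4, 13.1, 11.7 and 11.2. The genes lost were fainter. The amino acid transporter SLC38A4 had 0.573 and 0.257 CPM in control and 0.0529 and 0.0813 CPM in fusion cells, and the chemokine CCL20 had 0.417 and 0.171 against 0.0529 and 0 CPM. Neither loss held up when single libraries were left out (without CTRL replicate 1, adjusted p = 0.118 for SLC38A4 and 0.143 for CCL20). On a wider view, 165 protein-coding genes called higher by at least 1 crossed from under to over 1 CPM, and 56 called lower crossed the other way.

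**Figure D2:**
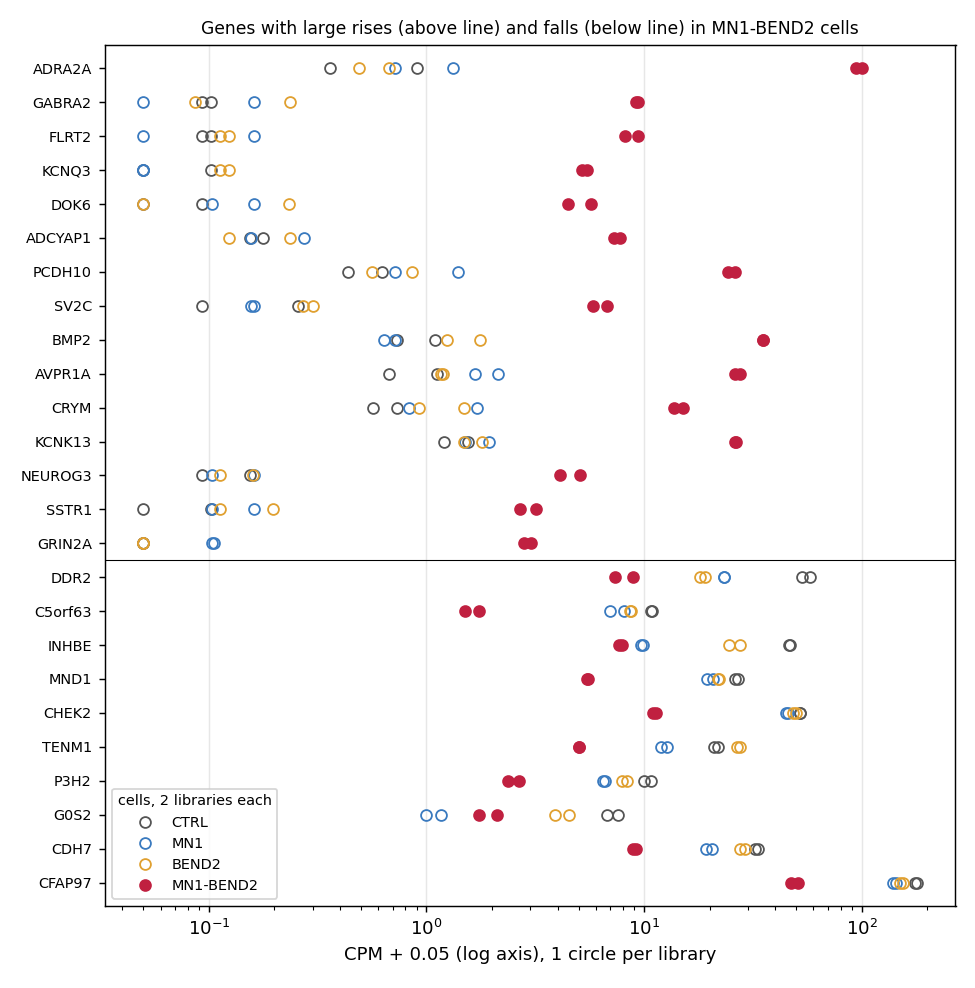
Levels in CPM + 0.05 on a log axis, 1 circle per library, for genes with large rises above the line and large falls below it; filled red circles are MN1-BEND2 cells, open circles are control, MN1 and BEND2 cells. In the upper block the filled circles lie to the right of all open ones, while in the lower block the circles of MN1 cells lie beside those of the fusion for INHBE and to the left of them for G0S2.

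G protein-coupled receptors for amines and peptides held more rises than falls. Of 36 tested members of that list, which also holds receptors for lysophospholipids, 20 rose, 2 fell and 14 were not called, with a median log2 fold change of 0.81 (18 and 3 with GC and length offsets, median 0.71; 10 and 1 with DESeq2). Tested directly, 16 of the 36 were higher and 4 lower than in MN1 cells, and 15 were higher and 2 lower than in BEND2 cells. ADRA2A, the alpha-2A adrenergic receptor, had 0.312 and 0.855 CPM in control and 100.0 and 93.6 CPM in fusion cells (log2 fold change 7.30, SE 0.173, adjusted p = 3.74e-11). It was at or under 1.28 CPM in all 4 libraries of the unfused lines. The members named next stayed under 5 CPM. EDNRB, the endothelin receptor type B, went from 0.260 and 0.342 to 3.91 and 3.74 CPM (3.62, SE 0.339, adjusted p = 2.60e-06). CHRM4, a muscarinic acetylcholine receptor, went from 0.312 and 0.428 to 4.39 and 4.63 CPM (3.57, SE 0.255, adjusted p = 2.59e-07), and the beta-1 adrenergic receptor ADRB1 from 0.365 and 0.428 to 3.22 and 3.33 CPM (3.02, SE 0.236, adjusted p = 5.53e-07). Outside the list, the vasopressin receptor AVPR1A was among the 15 largest rises, from 0.625 and 1.07 to 27.5 and 26.1 CPM (4.94, SE 0.174, adjusted p = 7.86e-10).

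Peptide ligands moved the same way. Of 13 tested neuropeptides and peptide hormones, 7 rose and none fell, with a median of 0.57. By direct test 6 were higher and 1 lower than in MN1 cells, and 6 higher and 1 lower than in BEND2 cells. ADCYAP1, which encodes the peptide PACAP, had 0.104 and 0.128 CPM in control and 7.66 and 7.19 CPM in fusion cells (5.91, SE 0.331, adjusted p = 3.31e-08). VGF, a secreted precursor of neuropeptides, went from 2.50 and 2.10 to 5.29 and 6.30 CPM (1.34, SE 0.194, adjusted p = 9.70e-05). Endothelin 1 (EDN1) went from 0.104 and 0.342 to 1.16 and 1.14 CPM (2.27, SE 0.496, adjusted p = 0.00213). Smaller rises were seen for neuromedin U (NMU, 0.95), substance P precursor TAC1 (0.80) and adrenomedullin (ADM, 0.57).

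Among 54 tested potassium channel genes, 21 rose, 5 fell and 28 were not called (median 0.23; 19 and 7 with GC and length offsets). Those furthest up belong to several families: the two-pore-domain leak channels KCNK13, KCNK12 and KCNK9, the inward rectifier KCNJ3 and the voltage-gated KCNA4 and KCNQ3. KCNK13 had 1.51 and 1.15 CPM in control and 26.3 and 26.1 CPM in fusion cells (4.31, SE 0.152, adjusted p = 7.86e-10). KCNK12 went from 0.885 and 0.684 to 5.71 and 5.69 CPM (2.86, SE 0.200), and KCNK9 from 0.937 and 0.471 to 3.81 and 4.27 CPM (2.55, SE 0.323). All 3 leak channels were also higher than in MN1 and in BEND2 cells, by 2.28 to 4.07 on the log2 scale.

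Receptors with an ion pore and voltage-gated sodium and calcium channels did not move as groups. Of 26 GABA, glycine and glutamate receptor genes, 8 rose and 5 fell (median 0.44). GABRB2, another GABA-A receptor subunit, went from 0.208 and 0.128 to 2.75 and 2.40 CPM (3.91, SE 0.514, adjusted p = 4.52e-05). The metabotropic GABA-B receptor subunit GABBR2 went from 6.87 and 7.19 to 35.0 and 36.0 CPM (2.34, SE 0.0944, adjusted p = 2.33e-09). The GABA receptor genes on the list that rose most thus belong to both the pore-forming and the G protein-coupled kind. Of 24 sodium and calcium channel genes, 5 rose and 6 fell, a balance that turns when no filter on low counts is used. With GC and length offsets 3 rose and 9 fell. The sodium channel beta subunit SCN4B rose from 14.8 and 16.9 to 76.0 and 80 CPM (2.29, SE 0.0580), whereas SCN9A, the pore subunit known from pain-sensing neurons, fell from 16.5 and 16.5 to 5.23 and 4.67 CPM (-1.74, SE 0.0905).

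Cell adhesion and axon guidance genes changed in both directions. Among all tested genes 26.7% rose and 25.2% fell, so mixed counts alone do not set a list apart. Of 9 non-clustered protocadherins, which are homophilic adhesion proteins of the nervous system, 4 rose and 3 fell. PCDH10 went from 0.573 and 0.385 to 24.3 and 26.1 CPM (5.73, SE 0.233, adjusted p = 2.43e-09), while PCDH9 went from 81.1 and 84.4 to 27.6 and 30 CPM (-1.52, SE 0.0472, adjusted p = 3.20e-10). Of 12 classical and related cadherins, 4 rose and 2 fell. Here the genes that fell were the abundant ones: N-cadherin (CDH2) went from 139 and 133 to 64.2 and 59.8 CPM (-1.14, SE 0.0527) and CDH7 from 33.2 and 32.4 to 9.15 and 8.82 CPM (-1.87, SE 0.0705). Of the 4 that rose, 3 started under 1 CPM: CDH11, from 0.156 and 0.128 to 1.16 and 0.975 CPM (2.86, SE 0.491), and CDH22, from 0.573 and 0.898 to 3.91 and 3.49 CPM (2.29, SE 0.286). The third, CDH6, had no count in control cells and 0.687 and 1.10 CPM in fusion cells, at least 13.0-fold higher. Of 19 clustered protocadherins 9 rose and none fell, but with DESeq2 2 rises were called (3 to 7 without single libraries, 3 of them without CTRL replicate 2), and the copies of this cluster share sequence.

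The netrin-family gene NTNG2 rose from 3.44 and 4.41 to 28.4 and 28.0 CPM (2.83, SE 0.113, adjusted p = 2.21e-09), ROBO3, a receptor that lets axons cross the midline, from 6.35 and 6.42 to 35.2 and 37.7 CPM (2.51, SE 0.0813), and the netrin receptor UNC5A from 1.93 and 2.22 to 6.71 and 5.73 CPM (1.57, SE 0.196). All 3 were higher than in MN1 and in BEND2 cells as well (log2 differences 1.31 to 3.13). Their list of 35 Eph receptors, ephrins, netrins, slits and robos nevertheless held 13 rises and 11 falls, which became 10 and 15 with GC and length offsets. Semaphorins, plexins and neuropilins gave 11 rises and 6 falls among 29, which became 7 and 9 with those offsets. The guidance ligand SEMA3C fell from 43.4 and 43.4 to 11.9 and 14.8 CPM (-1.68, SE 0.0707), and the receptor PLXNC1 rose from 11.6 and 13.1 to 60.5 and 59.2 CPM (2.27, SE 0.0686). MN1 cells differed from the fusion in opposite senses for these, with SEMA3C at 80.7 and 77.0 CPM and PLXNC1 at 40 and 43.2 CPM.

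Synaptic genes showed the same mixture, which all tested genes show too (26.7% higher, 25.2% lower). SV2C and SV2B, glycoproteins of synaptic vesicles, rose from 0.208 and 0.0428 to 5.76 and 6.70 CPM (5.66, SE 0.315) and from 0.417 and 0.513 to 4.86 and 4.96 CPM (3.37, SE 0.224). Synaptophysin (SYP), the standard marker of such vesicles, fell from 29.7 and 31.4 to 9.25 and 9.55 CPM (-1.70, SE 0.0720, adjusted p = 3.43e-09). Their list of 40 vesicle and exocytosis genes held 13 rises and 12 falls, a balance that turned with GC and length offsets (9 and 13), with DESeq2, and without CTRL replicate 2 or MN1-BEND2 replicate 1. Of 30 synapse-organizing adhesion genes, 10 rose and 14 fell. The SLITRK genes, membrane proteins that induce synapses, rose (SLITRK3 3.77, SLITRK2 2.81, SLITRK5 1.72), while the teneurin TENM1 fell from 21.7 and 21.0 to 4.97 and 4.96 CPM (-2.10, SE 0.0776).

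**Figure D3:**
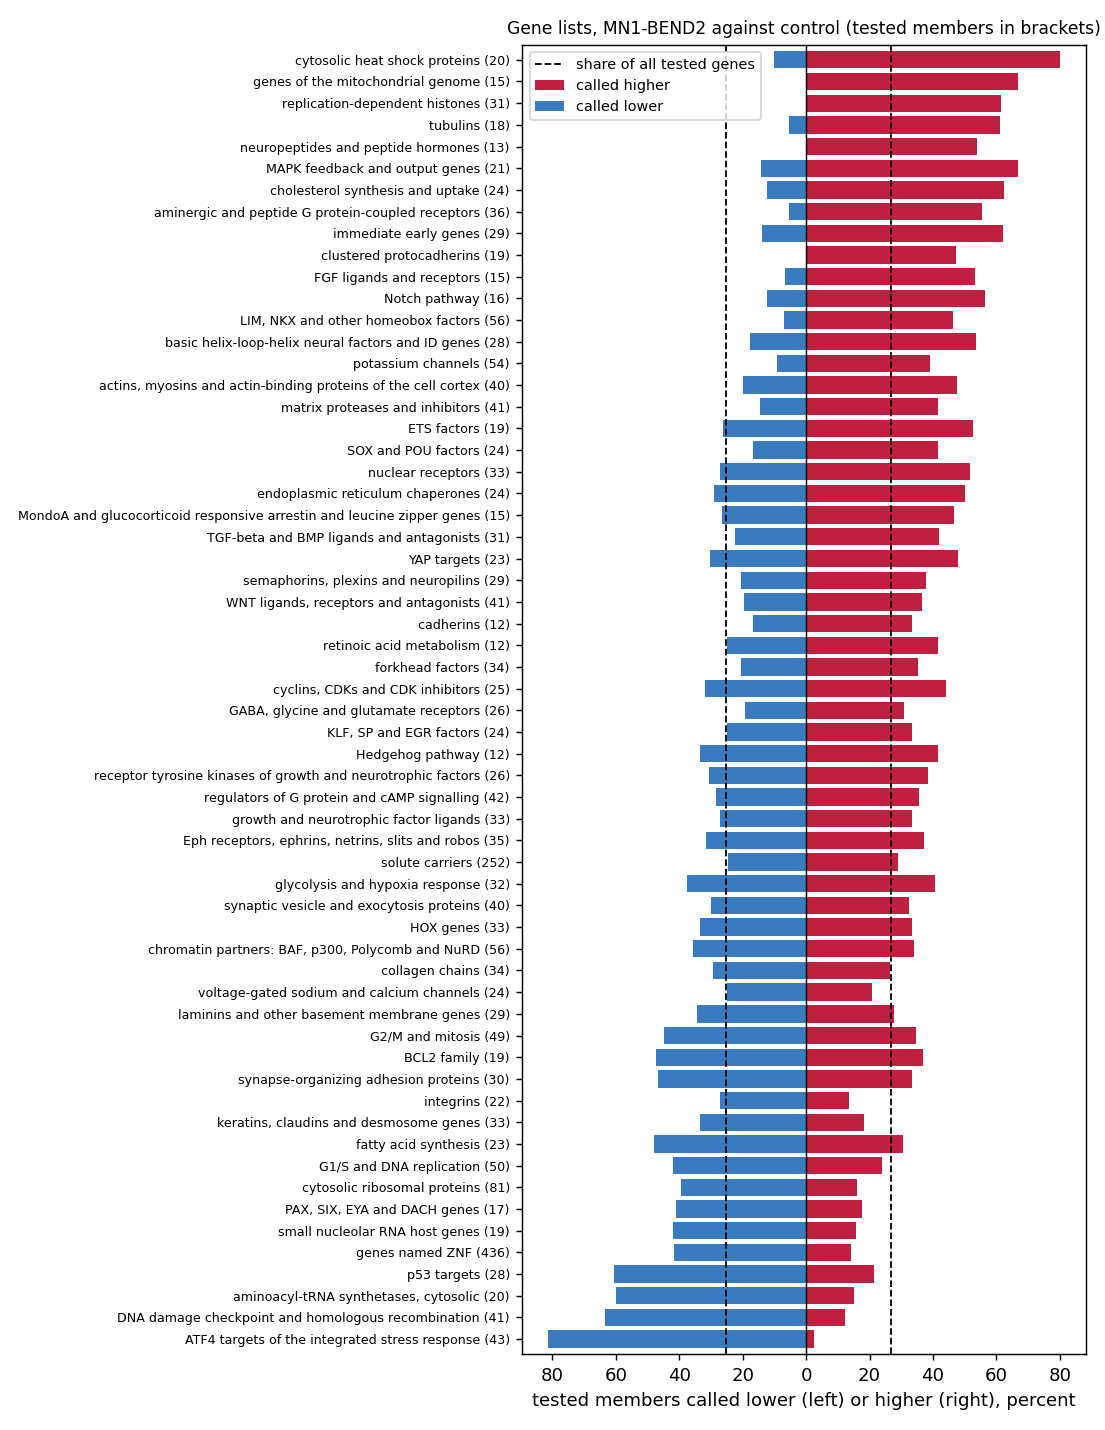
Bars to the right give the percent of tested members called higher, and bars to the left the percent called lower, in MN1-BEND2 against control. Each gene list with at least 12 tested members (their number in brackets) is shown, except that of genes reported high in astroblastoma. The tubulin and actin lists, drawn up after the values were seen, are included. Dashed lines mark 26.7% and 25.2%, the shares among all 18127 tested genes. Near the top lie heat shock proteins, genes of the mitochondrial genome, histones, tubulins, neuropeptides, MAPK output genes, cholesterol genes, amine and peptide receptors, and immediate early genes. At the bottom lie ATF4 targets, DNA damage genes, aminoacyl-tRNA synthetases and p53 targets.

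Several lists of transcription factors held more rises than falls, while HOX genes and the list of PAX, EYA and DACH genes did not. Of 28 tested basic helix-loop-helix neural factors and ID genes, 15 rose and 5 fell (median 0.40; 11 and 7 with GC and length offsets). Beside NEUROG3, BHLHE22 went from 0.469 and 0.556 to 2.64 and 3.29 CPM (2.52, SE 0.261), ATOH8 from 0.521 and 0.642 to 3.86 and 4.14 CPM (2.76, SE 0.358), and HES7, an oscillator of somite formation, from 6.09 and 7.66 to 30.6 and 32 CPM (2.18, SE 0.122). The ID genes, whose products block basic helix-loop-helix factors and which BMP signals induce, rose as well: ID1 from 3.96 and 3.51 to 14.5 and 14.6 CPM (1.97, SE 0.150), ID2 by 0.99 and ID3 by 0.52. Genes of basic helix-loop-helix factors and ID genes were therefore raised in the same libraries, which do not resolve single cells.

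Of 56 LIM, NKX and other homeobox factors, 26 rose, 4 fell and 26 were not called (median 0.29; 19 and 9 with GC and length offsets, 16 and 2 with DESeq2). ONECUT3 went from 1.77 and 2.14 to 15.1 and 15.9 CPM (2.98, SE 0.169, adjusted p = 3.65e-08). It was at 0.111 and 0.214 CPM in MN1 cells, which puts the fusion and MN1 lines on opposite sides of control. Smaller levels were reached by the LIM factor ISL1, known from motor neurons (2.05, SE 0.482), and the oligodendrocyte factor NKX6-2 (2.10, SE 0.349). Of 24 SOX and POU factors, 10 rose and 4 fell (median 0.20; 10 and 3 with GC and length offsets, median 0.02). The sensory neuron factor POU4F1 rose from 28.2 and 29.2 to 62.3 and 63.9 CPM (1.13, SE 0.0515) and SOX9, a factor of glia and cartilage, from 15.4 and 14.3 to 32.7 and 32.9 CPM (1.14, SE 0.0819), whereas the stem cell factor SOX2 fell from 25.2 and 26.8 to 16.6 and 17.9 CPM (-0.59, SE 0.0930). Of 17 tested genes of the PAX, EYA, DACH and sine oculis homeobox families, which pattern eye, ear and kidney, 3 rose and 7 fell (median -0.10). HOX genes were evenly split (11 rose, 11 fell, 11 not called), but gave 9 rises and 14 falls with GC and length offsets. Neighbouring members of these clusters share sequence and overlap antisense transcripts.

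Nuclear receptors, which are transcription factors switched by steroids and other lipids, gave 17 rises and 9 falls among 33 tested (median 0.23), but 11 and 10 with GC and length offsets and 8 and 7 with DESeq2. The progesterone receptor PGR had 1.87 and 1.37 CPM in control, 8.72 and 8.08 CPM in fusion cells, 0.334 and 0.482 CPM in MN1 cells and 0.660 and 0.811 CPM in BEND2 cells (2.38 against control, 4.34 against MN1, 3.53 against BEND2). The estrogen receptor genes ESR1 and ESR2 rose by 1.47 and 1.12. With DESeq2 neither was called (ESR1 adjusted p = 0.0695, ESR2 adjusted p = 0.171). PGR stood on the other side of control in both unfused lines. The orphan receptor NR4A3, also an immediate early gene, went from 2.24 and 1.75 to 12.8 and 11.9 CPM (2.63, SE 0.163).

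Among 34 forkhead factors, 12 rose and 7 fell, which turned to 9 and 10 with GC and length offsets. FOXQ1 went from 4.27 and 5 to 26.0 and 26.9 CPM (2.50, SE 0.100), FOXC2 from 1.30 and 1.24 to 7.72 and 6.95 CPM (2.52, SE 0.202) and FOXA2, a factor of the floor plate and endoderm, from 2.40 and 2.65 to 7.51 and 7.76 CPM (1.59, SE 0.136). FOXP2, known for its part in speech, fell from 46.8 and 47.4 to 24.2 and 22.0 CPM (-1.04, SE 0.0493). Of 436 tested genes named ZNF, most of them zinc finger repressors, 62 rose and 182 fell (median -0.15). Against MN1 cells the same list held 151 higher and 45 lower, and against BEND2 cells 43 higher and 151 lower. By these counts the fusion cells lay below BEND2 cells and above MN1 cells for more members than the reverse.

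Secreted signals of development were among the largest single rises. The bone morphogenetic protein BMP2 had 1.04 and 0.684 CPM in control and 35.3 and 35.3 CPM in fusion cells (5.37, SE 0.169, adjusted p = 3.41e-10), beside 0.669 and 0.589 CPM in MN1 cells and 1.72 and 1.19 CPM in BEND2 cells. The BMP antagonist noggin (NOG) rose as well, from 4.17 and 3.17 to 17.3 and 18.6 CPM (2.30, SE 0.143). INHBB, a chain of activin B, went from 3.28 and 4.11 to 16.5 and 17.9 CPM (2.21, SE 0.138). A ligand and its antagonist were thus raised together, and the list of 31 TGF-beta and BMP ligands and antagonists held 13 rises and 7 falls (12 and 12 with GC and length offsets).

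WNT pathway genes gave 15 rises and 8 falls among 41 tested (median 0.16, and -0.07 with GC and length offsets). The largest rises were of antagonists: NOTUM, which removes the lipid from WNT proteins, from 1.30 and 0.941 to 8.78 and 9.18 CPM (3.01, SE 0.186), and DKK2, which binds WNT coreceptors, from 2.50 and 1.71 to 13.8 and 15.6 CPM (2.82, SE 0.164). The ligand WNT7B (1.87, SE 0.151) and the receptor FZD7 (1.31, SE 0.0666) rose too. For Hedgehog genes the balance of 5 rises and 4 falls turned with GC and length offsets (3 and 5). SHH went from 0.156 and 0.214 to 1.16 and 1.02 CPM (2.49, SE 0.443), while 2 genes that report its signal, HHIP and GLI1, fell (-1.11, SE 0.112, and -0.96, SE 0.241). The fall of GLI1 was not called without MN1-BEND2 replicate 1 (adjusted p = 0.0509). The Notch ligand DLL4 rose from 2.45 and 2.74 to 8.14 and 8 CPM (1.63, SE 0.146) and the target HEY2 from 19.6 and 19.5 to 42.5 and 44.7 CPM (1.16, SE 0.0818), within a list of 9 rises and 2 falls that became 4 and 6 with the offsets.

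Of 15 FGF ligands and receptors, 8 rose and 1 fell (median 0.43), and 9 of the 15 were higher and none lower than in MN1 cells. FGFR1 had 69.3 and 70.8 CPM in control and 151 and 147 CPM in fusion cells (1.09, SE 0.0420, adjusted p = 1.66e-09). FGFR3 went from 19.6 and 19.2 to 45.7 and 46.0 CPM (1.24, SE 0.0570), and the ligand FGF5 from 7.24 and 6.42 to 17.7 and 15.7 CPM (1.29, SE 0.0979). Receptors and a ligand of the same family were thus both higher. Other growth factor genes rose, such as BDNF, from 2.86 and 2.82 to 15.1 and 12.1 CPM (2.25, SE 0.151), and the EGF receptor ligand TGFA, from 10.1 and 9.58 to 37.8 and 32.9 CPM (1.85, SE 0.100). The receptor of BDNF, NTRK2, rose by 1.32 (SE 0.0924) and the PDGF receptor PDGFRA from 1.35 and 2.14 to 11.4 and 11 CPM (2.65, SE 0.200). Falls in these lists included VEGFA, from 171 and 163 to 77.2 and 73.2 CPM (-1.15, SE 0.0386), beside 75.7 and 75.8 CPM in MN1 cells (log2 difference -0.01, adjusted p = 0.836). The collagen receptor DDR2 fell from 53 and 57.7 to 8.83 and 7.27 CPM (-2.80, SE 0.0767) and was lower than in either unfused line. Over the whole lists, growth factor ligands gave 11 rises and 9 falls and their receptor kinases 10 and 8, and both balances turned under several alternatives.

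Transcripts of genes known as outputs of growth factor signalling mostly rose, while signalling itself was not measured. Of 21 tested MAPK feedback and output genes, 14 rose and 3 fell (median 0.73), and direct tests gave 15 higher and 3 lower than in MN1 cells and 14 and 3 against BEND2 cells. SPHK1, which makes sphingosine 1-phosphate, went from 4.63 and 5 to 50.7 and 50.8 CPM (3.39, SE 0.0850, adjusted p = 5.65e-11). The ETS factor ETV5 was at 25.9 and 25.8 CPM in control, 63.8 and 61.6 CPM in fusion cells and 13.5 and 12 CPM in MN1 cells, and the phosphatase DUSP4 at 16.7 and 15.5, 36.2 and 34.9, and 5.41 and 6.32 CPM. For these 2 genes the fusion and unfused MN1 stood on opposite sides of control, with differences of 2.30 (adjusted p = 5.30e-11) and 2.60 (adjusted p = 3.35e-10) between them. The Sprouty feedback inhibitors SPRY2 and SPRY4 rose by 0.62 and 0.73 against control and were 1.16 and 1.72 above MN1 cells.

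Of 29 immediate early genes, which are induced within minutes by growth factors or stress, 18 rose and 4 fell (median 0.49; 17 and 6 with GC and length offsets). Against MN1 cells 24 of the 29 were higher and none lower, and against BEND2 cells 16 were higher and 3 lower. JUNB, a subunit of AP-1, had 11.7 and 10.7 CPM in control and 54.7 and 52.8 CPM in fusion cells (2.26, SE 0.0639, adjusted p = 1.54e-10). IER5 went from 72.4 and 71.8 to 294 and 294 CPM (2.03, SE 0.0339), and MYC, the growth-promoting factor, from 106 and 104 to 328 and 325 CPM (1.64, SE 0.0298). Another member, EGR1, went from 9.53 and 10.3 to 28.1 and 28.0 CPM (1.50, SE 0.0844), and EGR2 from 0.833 and 0.898 to 2.11 and 1.79 CPM (1.15, SE 0.247; DESeq2 adjusted p = 0.0958). Both are textbook targets of serum response factor, and a 50-base stretch before each RefSeq start is shown with 1 CArG box, the site of that factor, in capitals (EGR1 at chr5:138465354-138465403, plus strand; EGR2 at chr10:62816408-62816457, minus strand).
EGR1: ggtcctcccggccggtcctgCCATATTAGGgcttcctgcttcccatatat
EGR2: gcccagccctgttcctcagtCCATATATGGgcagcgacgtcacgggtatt
A CArG box was found in 1.02% of the 10922 promoters. Shares of motifs within gene lists are not given, since under 80% of the tested protein-coding genes had a promoter in the table and such a check would be void.

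The largest share of falls in any list was that of genes of the integrated stress response, in which the factor ATF4 turns on amino acid transport, amino acid synthesis and tRNA charging. Of 43 tested ATF4 targets, 1 rose, 35 fell and 7 were not called (median -0.60; 0 and 38 with GC and length offsets). ATF4 mRNA itself, which is controlled mainly at translation, was at 567 and 608 CPM in control and 596 and 635 CPM in fusion cells (0.07, SE 0.0502, adjusted p = 0.285; -0.06 with GC and length offsets). With a replicate block in the fit, ATF4 was called higher (0.07, adjusted p = 0.0087). INHBE, a hepatokine chain of activin E, fell from 46.4 and 46.8 to 7.61 and 7.88 CPM (-2.59, SE 0.0724), and the cystine transporter SLC7A11 from 187 and 181 to 63.3 and 61.5 CPM (-1.56, SE 0.0352). The stress factor CEBPG fell from 876 and 860 to 456 and 461 CPM (-0.92, SE 0.0285), and the tRNA exporter XPOT from 740 and 730 to 366 and 374 CPM (-0.99, SE 0.0286). Between the fusion and unfused MN1 the list was split: against MN1 cells 13 of the 43 were higher and 15 lower, and against BEND2 cells 2 were higher and 31 lower. CEBPG was at 393 and 396 CPM in MN1 cells, below the fusion (0.22, adjusted p = 6.13e-05). SLC7A11 was at 122 and 119 CPM there, above it (-0.95, adjusted p = 1.72e-09). Of 20 cytosolic aminoacyl-tRNA synthetases, 3 rose and 12 fell (median -0.23).

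ATF4 and CEBP factors bind a composite site whose core was searched as TGATGNAA on either strand, found in 1.94% of the 10922 promoters. For listed targets with such a core before the RefSeq start, 48 bases around it are shown 5′ to 3′ along the gene's strand with the core in capitals, to set the letters beside the values (FGF21 at chr19:48755450-48755497, plus; CEBPG at chr19:33374051-33374098, plus; GOT1 at chr10:99430795-99430842, minus; CHAC1 at chr15:40953242-40953289, plus; SLC1A5 at chr19:46784884-46784931, minus).
FGF21: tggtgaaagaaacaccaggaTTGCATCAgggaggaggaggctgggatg
CEBPG: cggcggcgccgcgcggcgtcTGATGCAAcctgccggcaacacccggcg
GOT1: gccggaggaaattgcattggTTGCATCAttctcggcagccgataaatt
CHAC1: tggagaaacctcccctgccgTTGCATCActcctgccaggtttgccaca
SLC1A5: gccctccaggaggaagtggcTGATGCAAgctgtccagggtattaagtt
FGF21, a stress hormone of liver, fell by 1.37 and CEBPG fell by 0.92 on the log2 scale, and GOT1, the cytosolic aspartate aminotransferase, fell by 0.25. CHAC1, which degrades glutathione, was at 15.6 and 15.4 CPM in control and 13.7 and 14.3 CPM in fusion cells and was not called (-0.15, adjusted p = 0.209), and the glutamine transporter SLC1A5 was not called either (-0.05). With GC and length offsets CHAC1 and SLC1A5 were called lower as well (-0.42 and -0.25). Of 2 further targets with a core within 7 bases of the start, whose letters run past it and are not printed, SLC1A4 was not called (0.06, adjusted p = 0.251) and SLC7A1 fell by 0.56; both carry amino acids across the cell membrane. Genes with the core thus included members with large, small and no called falls.

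Genes of lipid synthesis and of protein folding changed modestly. Of 23 tested genes of fatty acid synthesis, 7 rose and 11 fell (median -0.12). Of 24 genes of cholesterol synthesis and uptake, 15 rose and 3 fell (median 0.28), yet 2 were higher and 15 lower than in MN1 cells. HMGCS1, an enzyme early in cholesterol synthesis, went from 190 and 189 to 321 and 317 CPM (0.75, SE 0.0316). Of 20 cytosolic heat shock genes, 16 rose and 2 fell (median 0.25), with 6 higher and 7 lower than in MN1 cells and 12 higher and 3 lower than in BEND2 cells. The cochaperone BAG3 went from 27.1 and 28.8 to 54.3 and 54.1 CPM (0.95, SE 0.0437). Chaperones of the endoplasmic reticulum gave 12 rises and 7 falls among 24, with 3 higher and 13 lower than in MN1 cells, and the master chaperone HSPA5 went from 216 and 221 to 345 and 361 CPM (0.69, SE 0.0425).

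Of 15 tested genes on the list of MondoA and glucocorticoid responsive genes, 7 rose and 4 fell (median 0.12). With GC and length offsets 5 rose and 5 fell. Among its members, the glucose- and stress-responsive arrestin genes TXNIP and ARRDC4 fell, from 112 and 112 to 34.1 and 35.4 CPM (-1.68, SE 0.0370) and from 333 and 326 to 105 and 104 CPM (-1.66, SE 0.0316). MN1 cells were lower still, at 21.2 and 20.3 CPM for TXNIP and 66.3 and 63.9 CPM for ARRDC4, so both were higher in fusion than in MN1 cells (0.74, adjusted p = 1.15e-07, and 0.68, adjusted p = 2.01e-08). BEND2 cells lay between control and fusion, with TXNIP at 72.9 and 72.4 CPM. The glucocorticoid-inducible kinase SGK1 rose from 5.47 and 4.92 to 18.8 and 18.5 CPM (1.85, SE 0.0931), next to 19.9 and 18.8 CPM in MN1 cells (adjusted p = 0.625) and 4.91 and 4.74 CPM in BEND2 cells.

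DNA damage and recombination genes fell as a group. Of 41 tested genes of the DNA damage checkpoint and homologous recombination, 5 rose, 26 fell and 10 were not called (median -0.27; 6 and 22 with GC and length offsets, median -0.16). Direct tests gave 3 higher and 20 lower than in MN1 cells and 3 higher and 22 lower than in BEND2 cells. The checkpoint kinase CHEK2 went from 52.1 and 52.2 to 10.9 and 11.3 CPM (-2.22, SE 0.0474, adjusted p = 1.91e-11), and MND1, a recombinase partner best known from meiosis, from 26.0 and 27.0 to 5.50 and 5.44 CPM (-2.28, SE 0.0739, adjusted p = 4.26e-10). No MN1 library was below 44.9 CPM for CHEK2 and no BEND2 library below 48.5 CPM. Falls of the other damage genes were smaller, as for the kinase ATM, from 129 and 132 to 79.1 and 77.8 CPM (-0.73, SE 0.0321), the resection factor RBBP8 (-0.88, SE 0.0527) and BARD1, the partner of BRCA1 (-0.71, SE 0.04). Of 28 p53 targets, 6 rose and 17 fell (median -0.29), with 12 higher and 6 lower than in MN1 cells.

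Cell cycle lists were mixed. Of 50 genes of G1/S and DNA replication, 12 rose and 21 fell (median -0.00), and of 49 genes of G2/M and mitosis, 17 rose and 22 fell, which turned to 21 and 11 with GC and length offsets. The ribonucleotide reductase subunit RRM2 rose from 123 and 128 to 283 and 292 CPM (1.20, SE 0.0363), and the mostly germline cyclin CCNA1 from 3.96 and 3.34 to 17.8 and 18.3 CPM (2.31, SE 0.152). The retinoblastoma gene RB1 fell from 200 and 187 to 97.6 and 96.4 CPM (-0.99, SE 0.0409). Replication-dependent histones, which are made in S phase and mostly lack a poly(A) tail, gave 19 rises and no fall among 31 tested (median 0.69; 18 and 0 with GC and length offsets). Against the unfused lines, 23 were higher than in MN1 cells and 21 higher than in BEND2 cells, and none was lower than in either. The linker histone HIST1H1C went from 15.8 and 17.0 to 59.2 and 59.1 CPM (1.85, SE 0.0599). Many histone genes are near-identical copies, so their single values are uncertain, and the part of RNA selection and RNA quality was not tested.

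Genes of the cytoskeleton, and the single junction gene desmoplakin, were among the largest gains in CPM. The list of keratins, claudins and desmosome genes as a whole gave 6 rises and 11 falls among 33 tested. Its median was -0.35, and 0.02 without CTRL replicate 1. Gamma-actin (ACTG1) had 1100 and 1030 CPM in control and 2430 and 2290 CPM in fusion cells (1.15, SE 0.0431), and beta-actin (ACTB) 376 and 355 against 905 and 863 CPM (1.27, SE 0.0474). Both have many pseudogenes, whose reads counting may share. Desmoplakin (DSP), which anchors keratin filaments to desmosomes, had 331 and 360 CPM in control and 934 and 988 CPM in fusion cells (1.48, SE 0.0537). It was 1.53 above MN1 and 1.45 above BEND2 cells on the log2 scale, while ACTG1 was 0.41 and 0.84 above them and had 1830 and 1720 CPM in MN1 cells.

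The tubulin TUBA1A, the alpha-tubulin of developing neurons, went from 118 and 124 to 412 and 438 CPM (1.81, SE 0.0612), nonmuscle myosin MYH9 from 292 and 310 to 681 and 702 CPM (1.20, SE 0.0396) and the actin crosslinker ACTN1 from 49.9 and 50 to 130 and 133 CPM (1.40, SE 0.0382). In lists drawn up after these values were seen, 11 of 18 tubulins rose and 1 fell (median 0.52), and 19 of 40 actins, myosins and cortical actin-binding proteins rose and 8 fell (median 0.23). Other large gains were the lysosomal protein LAPTM4B, from 261 and 263 to 612 and 612 CPM (1.23, SE 0.0274), the amyloid precursor APP, from 634 and 663 to 952 and 987 CPM (0.58, SE 0.0346), and the chaperone CALR, from 398 and 459 to 734 and 814 CPM (0.85, SE 0.0888). The rise of the elongation factor EEF2 (0.22, SE 0.0270) was not called with GC and length offsets (0.01).

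On the other side, the X-linked zinc finger factor ZNF711 lost most, from 2640 and 2650 to 1230 and 1260 CPM (-1.09, SE 0.0237). NUCKS1, a chromatin protein, went from 1820 and 1860 to 1160 and 1190 CPM (-0.65, SE 0.0257), and IRS4, the insulin receptor substrate typical of this lineage, from 754 and 783 to 351 and 369 CPM (-1.09, SE 0.0358). In MN1 cells ZNF711 was at 1810 and 1820 CPM and IRS4 at 750 and 756 CPM. The actin bundler PLS3 fell from 718 and 725 to 343 and 344 CPM (-1.07, SE 0.0263), against the direction of most cytoskeletal genes above. Of 81 cytosolic ribosomal protein genes, 13 rose and 32 fell (median -0.07). Among all tested genes with a mean of at least 100 CPM, 33.6% rose and 43.4% fell (median -0.05). Small falls were thus not particular to ribosomal protein genes. The elongation factor EEF1A1 went from 5910 and 6100 to 4930 and 4990 CPM (-0.28, SE 0.0244), whereas EEF2 was called higher (0.22), as given above. Genes of the mitochondrial genome gave 10 rises and no fall among 15 (median 0.29), and 6 rises without CTRL replicate 1, without MN1-BEND2 replicate 2 or with DESeq2.

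Collagen genes were called about as often as all tested genes (26.7% higher and 25.2% lower), with 9 of 34 chains higher and 10 lower. Of 41 matrix proteases and inhibitors 17 rose and 6 fell (median 0.12). COL12A1, a fibril-associated collagen, was the most changed, with 12.1 and 13.9 CPM in control, 145 and 146 CPM in fusion cells, 6.13 and 6.96 CPM in MN1 cells and 11 and 10.5 CPM in BEND2 cells (3.47 against control, SE 0.0562, adjusted p = 2.44e-12). COL14A1, a related collagen of the same class, fell from 102 and 105 to 55.1 and 55.1 CPM (-0.91, SE 0.0340), beside 190 and 189 CPM in MN1 cells. These 2 relatives therefore moved against each other in fusion cells. Fibronectin (FN1) fell from 129 and 120 to 70.6 and 71.7 CPM (-0.80, SE 0.0456), and the proteases ADAMTS9, ADAM19 and ADAMTS2 rose by 1.64, 1.53 and 1.35.

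Among chromatin regulators that work with MN1 or oppose it, 19 of 56 rose and 20 fell, a balance that turned with DESeq2 and without either control library. DPF3, a neural and heart subunit of the BAF complex, rose from 2.76 and 3.29 to 13.1 and 13.7 CPM (2.13, SE 0.121), CHD5, a neuronal remodeller, from 9.06 and 8.77 to 32.6 and 34.3 CPM (1.91, SE 0.0774), and the BAF ATPase SMARCA2 from 81.7 and 89.1 to 151 and 167 CPM (0.90, SE 0.0637). The Polycomb methyltransferase EZH2 rose as well, from 167 and 178 to 265 and 271 CPM (0.64, SE 0.0425). Each of these 4 was also higher than in MN1 and in BEND2 cells. The 19 apoptosis genes of the BCL2 family gave 7 rises and 9 falls, which turned with DESeq2 and without CTRL replicate 2. BMF fell from 13.3 and 12.4 to 4.39 and 3.41 CPM (-1.73, SE 0.120), while its relative BCL2L11 rose from 28.2 and 26.5 to 52.9 and 52.8 CPM (0.95, SE 0.0530).

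Defining markers of brain cells gave no common direction. Summed levels of the 13 neuron markers were 468 and 501 CPM in control and 629 and 675 CPM in fusion cells, which is mainly the neurofilament gene NEFL (333 and 358 against 501 and 539 CPM, 0.59, SE 0.0589). Of the 9 neuron markers tested, 2 rose and 3 fell, among them SYP and the dendrite protein MAP2, from 8.85 and 10.9 to 2.70 and 3.45 CPM (-1.67, SE 0.175), and the balance turned without MN1-BEND2 replicate 1. Astrocyte markers summed to 186 and 187 CPM in control and 188 and 182 CPM in fusion cells (1 rose and 1 fell of 7), and ependymal markers to 4.27 and 5.05 against 7.77 and 7.11 CPM (2 rose of 5). Oligodendrocyte markers went from 51.2 and 49.1 to 72.1 and 67.8 CPM (3 rose of 5, PDGFRA among them), and neuroendocrine markers from 61.3 and 63.7 to 36.6 and 37.3 CPM (3 fell of 5). Markers of the embryonic kidney line summed to 71.9 and 72.7 CPM in control and 63.1 and 62.4 CPM in fusion cells, with 2 up and 2 down of 6. The single neuronal receptors and factors described above were therefore not accompanied by a rise of neuron markers as a list. Sums for leukocytes were 6.56 and 0.642 CPM in control and 2.59 and 0.813 CPM in fusion cells, and endothelial and muscle markers summed to at most 2.10 CPM in all 4 libraries.

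By position, chromosome 18 differed most from the rest. Of its 283 tested genes 36 rose (12.7%) and 144 fell (50.9%), with a median of -0.33, while the medians of the other chromosomes lay between -0.12 (chromosome 4) and 0.19 (chromosome 16). The shift was also present in the direct contrasts, at -0.27 against MN1 and -0.21 against BEND2 cells, and ran from -0.34 to -0.26 over all alternatives, the last with GC and length offsets. Within the lowest of the 5 GC classes, 62.4% of chromosome 18 genes fell against 46.4% of the others, and within the middle class 47.9% against 23.6%. Over 171 genes of at least 10 CPM, library medians relative to the mean of the 10 libraries, as log2(CPM + 0.5), were 0.08 and 0.08 in control, -0.28 and -0.28 in fusion, 0.0 and 0.0 in MN1 and -0.05 and -0.04 in BEND2 cells. Both fusion libraries were thus lower to the same extent. In windows of 20 coding genes along the chromosome the median ranged from -0.54 to -0.06, so every such window was below 0. DNA copy number was not measured, and it cannot be told apart from regulation in these data. Several genes described above lie on chromosome 18, among them CDH2, CDH7, RBBP8, DOK6 and ADCYAP1.

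A few chromosome 18 genes rose against that shift. They include 8 coding genes with rises of at least 1, of which EMILIN2, an elastic fibre glycoprotein chosen for mention after its values were seen, had 19.6 and 17.3 CPM in control and 155 and 161 CPM in fusion cells (3.10, SE 0.0586), beside 10.3 and 11 CPM in MN1 cells. ABHD3 and CABLES1, named on the same ground, rose by 1.62 (SE 0.0403) and 1.31 (SE 0.0603).

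**Figure D4:**
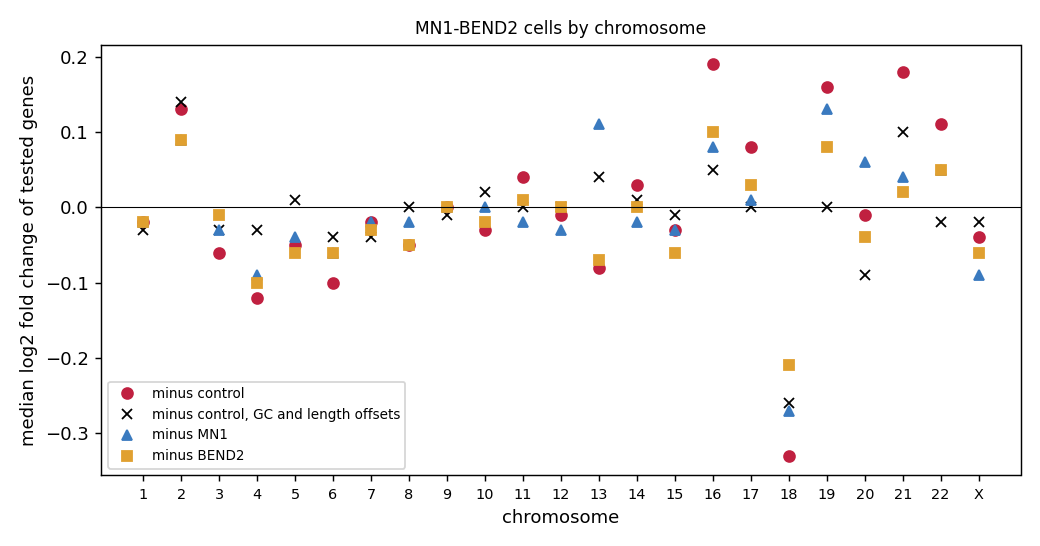
Median log2 fold change of the tested genes on each chromosome (x axis) in MN1-BEND2 cells against control (red circles; black crosses with GC and length offsets), against MN1 cells (blue triangles) and against BEND2 cells (yellow squares). Chromosome 18 is lowest in all 4 series, from -0.33 to -0.21, and chromosome 16 is highest against control at 0.19, falling to 0.05 with the offsets. Chromosome 2 is highest with the offsets, at 0.14 beside 0.13 without them.

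The direct contrasts set the large changes beside each unfused line. Of the 863 genes higher than control by at least 1, 701 were also called higher than in MN1 cells, 726 higher than in BEND2 cells and 671 higher than in both, while 107 differed upward from neither. Of the 421 genes lower by at least 1, 254 were called lower than in MN1 cells, 321 lower than in BEND2 cells and 229 lower than in both. Of the rises, 7 were called lower than in MN1 cells and none lower than in BEND2 cells. UTS2, the precursor of the peptide urotensin, was 1 of the 7, with 0 and 0.0428 CPM in control, 0.264 and 0.284 CPM in fusion cells and 5.13 and 4.76 CPM in MN1 cells. The others were RGS4, GADL1, FAM105A, IGSF10, MN1 itself and TUBB4B. The 6 falls that were called higher than in MN1 cells were G0S2, GDAP1L1, GDF15, ARRDC4, TSC22D3 and TXNIP, the last 3 of which belong to the list of MondoA and glucocorticoid responsive genes. So 671 of 863 rises and 229 of 421 falls lay beyond both unfused lines. These genes were picked by values of the same 2 fusion libraries, which favours such calls. Among all tested genes 23.2% were higher and 23.2% lower than in MN1 cells. Against BEND2 cells 21.7% were higher and 21.9% lower.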

How the data were processed

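Bulk RNA sequencing covered 10 libraries in 5 groups. Per the submitters' processing notes, reads were processed with HISAT2, SAMtools 1.0.1 and featureCounts 2.0.0 on GRCh38 (hg38). The deposited table holds whole-number counts per gene without normalization. How featureCounts was set, including strand, is not given in the sources used here, so overlapping and antisense genes cannot be told apart. Columns were matched to samples by name, and 0 columns of values stayed unmatched. Lines of the 45 identifiers that occur more than once were summed, and 27 symbols that had become dates were restored from GENCODE release 29.

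The quasi-likelihood test of edgeR 4.0.16 (R 4.3.3) was fitted once to all 10 libraries, with TMM scaling, filterByExpr by group, group as the only factor, 5 residual degrees of freedom, a common BCV of 0.04 and Benjamini-Hochberg adjustment. It was tested on simulated data. A gene with at most 3 counts in a group is given a count ratio with an exact 95% interval or, at 0, a bound against 3 counts, which are 0.123 to 0.161 CPM in single libraries of this comparison. Intervals cover counting error only, since reads are not independent molecules.

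The comparison and the 74 gene lists were chosen with earlier results of these data known, and 2 further lists (tubulins; actins and myosins) after the values were seen. Named genes are MN1 and BEND2, then called protein-coding genes without overlap of the libraries and with at least 5 CPM in the higher group (the 15 largest log2 changes and the 10 largest CPM changes each way), the 10 highest of those with at most 3 counts in control, the 5 highest of those with at most 3 counts in fusion cells, the 5 largest non-coding changes each way, and list members, with values for at most 6 a list beside those the sentence needs. Some genes that the lists hold or the rule could name are not reported here. Other names are said to be chosen by position or after their values were seen. Alternatives were other scalings and filters, a fit of the 4 libraries alone, a replicate block, GC and length offsets, single libraries left out, and DESeq2 1.42.0.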

Additional observations from a re-analysis of the deposited data

How the results depend on the processing

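Against 9416 called genes, DESeq2 called 6408, of which 3135 were higher and 3273 lower. By at least 1 on the log2 scale it called 569 genes higher and 274 lower, and it called 5333 genes against MN1 and 4819 against BEND2 cells. GC and length offsets gave 8347 calls (4204 higher, 4143 lower), with 73.0% of the main calls kept in direction and 51 turned. Leaving out single libraries gave 8001 to 8229 calls, 4055 to 4243 higher and 3946 to 4056 lower, with 831 to 871 higher and 401 to 441 lower by at least 1. A replicate block gave 10262 calls (5263 higher, 4999 lower). Deviations of same-numbered libraries correlated at 0.0659 to 0.29, not all over 0.1, so the numbers were not taken as pairs. With the block the uncalled ATF4 was called higher (0.07, adjusted p = 0.0087).

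Of 197 named genes with a call, 185 kept it under all 13 alternatives in which they were tested, and 12 lost it in some: CCL20, SLC38A4, EEF2, EGR2, ESR1, ESR2, GADL1, GLI1, KRT4, KRT13, TTC28 and UTS2. KRT13 and KRT4 turned direction without CTRL replicate 1 (0.11 and 2.23), and over all single libraries left out ran from -5.79 to 0.11 and from -10.34 to 2.23. With GC and length offsets the uncalled ATF4, CCDC117 and PITPNB turned (-0.06, 0.08 and 0.13). The balance of rises and falls turned under some alternative in 17 of 76 lists. The causes of these differences were not tested, and depth limits genes under about 0.16 CPM.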

Other observations

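Non-coding genes changed in both directions. The 5 largest rises among those with a named symbol were EP300-AS1, LINC00511, MIAT, TFAP2A-AS1 and HOTTIP, and the 5 largest falls were LINC02154, OLMALINC, SGMS1-AS1, LINC01411 and ATP2B1-AS1. LINC00511 had 2.81 and 2.4 CPM in control and 26.2 and 29.4 CPM in fusion cells (log2 fold change 3.42, SE 0.174), and EP300-AS1, antisense to the gene of p300, had 0.365 and 0.599 against 7.29 and 7.68 CPM (3.91, SE 0.235). LINC02154 fell from 12.4 and 12.6 to 1.43 and 1.75 CPM (-2.96, SE 0.197), beside 1.45 and 2.62 CPM in MN1 cells. OLMALINC fell from 29.6 and 29.9 to 9.89 and 10.5 CPM (-1.54, SE 0.0579) and was above 32 CPM in the libraries of both unfused lines. Without strand, EP300-AS1 reads cannot be told apart from those of its partner. Of 906 tested lincRNAs, 10.8% rose and 18.3% fell, against 31.4% and 28.5% of 13888 protein-coding genes.

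Neighbours of the 2 endogenous genes, chosen by position, did not move as blocks. On the MN1 side of chromosome 22, PITPNB, HSCB and CCDC117 were not called (-0.04, 0.20 and -0.03), TTC28 was called lower by little (-0.13) and was not called with DESeq2 or without CTRL replicate 2 or either fusion library, XBP1 fell (-0.46), and CHEK2 fell by 2.22. On the BEND2 side of chromosome X, RAI2 rose from 6.93 and 7.27 to 29.2 and 27 CPM (1.98, SE 0.111) and ADGRG2 from 11.7 and 11.5 to 57.7 and 57 CPM (2.31, SE 0.0739), while PPEF1 fell (-1.12, SE 0.239).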
